A study of Homo sapiens with 72 samples.

Results

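The metallothionein genes and the zinc exporter gene SLC30A1 were followed through 11 deposited comparisons of human cells. The 9 genes, out of 61541 in each table, were taken by symbol: MT1A, MT1E, MT1F, MT1G, MT1L, MT1M, MT1X, MT2A and SLC30A1. The symbols were carried to tables without a symbol column by Ensembl identifier. The metallothionein genes are close copies of each other, so reads may have been split between them, and levels of single copies are uncertain to that degree.

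Metallothioneins are small cytoplasmic proteins rich in cysteine that bind zinc, copper and cadmium, and they are known for their induction by metals and by arsenite. MTF1, a zinc-sensing transcription factor, binds short metal response elements in their promoters and in that of SLC30A1. SLC30A1, also called ZnT1, is the transporter that moves zinc out of the cell across the plasma membrane. The metallothioneins bind metal inside the cell, and SLC30A1 lowers the amount of zinc there.

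The study concerns G3BP1, an RNA-binding protein of stress granules, and 24 of its 72 libraries were used, in 11 groups. Another 48 libraries were not analysed here. In the first experiment on U2OS osteosarcoma cells, 2 libraries each were made from wild-type cells, untreated cells with knockout of both G3BP1 and G3BP2, and the knockout cells 24 h after Lipofectamine transfection of G3BP1 (the G3BP1 rescue). The second experiment used U2OS cells of the same G3BP1/2 knockout genotype throughout, again with 2 libraries per group. Its 6 groups were untransfected knockout cells, a rescue by 24 h of transfection of wild-type G3BP1, and a rescue of the same length by G3BP1 lacking its NTF2 domain, each without and with 200 uM sodium arsenite for 2 h. No mock-transfected group was among them, so the transfection and the G3BP1 it delivered cannot be told apart. Whether the knockout line is 1 clone is not given in the sources used here. RNA immunoprecipitation (RIP) compared 3 immunoprecipitates with 3 inputs from Flp-In T-REx 293 cells, an embryonic kidney line with stable FLAG-tagged G3BP1, after 24 h with 1 ug/mL tetracycline.

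Whole reads of each U2OS library were worked out from the deposited tables, and a level below is normalised reads, that is reads divided by the library's size factor within its experiment. The libraries of a group are called a and b, names without order. Libraries of the first experiment held 38.59 to 52.47 M (1e6) gene reads, and those of the second 10.79 to 27.76 M. G3BP1 reads remained in the knockout libraries, at 0.0273% and 0.0281% of gene reads in the first experiment against 0.0408% and 0.0417% in wild type. The G3BP1 rescue of the first experiment held 0.0435% and 0.0437%, whereas the rescues of the second held 3.83% to 6.22%. In normalised reads the first experiment's rescue was above its knockout without overlap, the knockout mean being 0.624 of that of the rescue. These reads say nothing of the protein. Mesenchymal markers VIM, SPARC and COL1A1 were present in every U2OS library, COL1A2 was near 0 at no more than 0.943 reads per M gene reads, and EPCAM was low, at 2.73 to 12.1 per M. In these bulk libraries fewer cells of a type and less RNA per cell cannot be told apart. Where nothing says that libraries came from separate cultures, the p-values measure the spread between libraries, which may be technical.

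Upstream sequence was at hand for 3 of the 9 genes (RefSeq, GRCh38.p14), and all 3 are shown. Among the metallothioneins with reads in U2OS cells, MT1X and MT2A had the largest and the smallest arsenite responses as ratios. By gain in reads MT2A had the largest response in every background. A link between the number of cores and the response was not tested. Each run is the 250 bases before the transcription start on the gene's own strand. Capitals mark the core of the metal response element, searched as TGCACNC and TGCGCNC on both strands, where a place read on both strands counts once. The MT1X window is chr16:56682220-56682469 on the plus strand, the MT2A window is chr16:56608334-56608583 on the plus strand, and the SLC30A1 window is chr1:211579162-211579411 on the minus strand.
MT1X: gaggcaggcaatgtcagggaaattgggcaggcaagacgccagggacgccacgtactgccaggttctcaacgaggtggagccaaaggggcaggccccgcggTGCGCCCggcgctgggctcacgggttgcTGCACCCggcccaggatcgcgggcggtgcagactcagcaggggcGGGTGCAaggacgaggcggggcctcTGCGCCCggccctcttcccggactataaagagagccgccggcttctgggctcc
MT2A: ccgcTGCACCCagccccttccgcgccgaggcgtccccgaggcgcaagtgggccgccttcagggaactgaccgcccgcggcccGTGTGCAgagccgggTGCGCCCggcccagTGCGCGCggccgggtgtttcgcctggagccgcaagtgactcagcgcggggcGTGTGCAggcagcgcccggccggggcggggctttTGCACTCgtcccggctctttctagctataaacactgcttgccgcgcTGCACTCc
SLC30A1: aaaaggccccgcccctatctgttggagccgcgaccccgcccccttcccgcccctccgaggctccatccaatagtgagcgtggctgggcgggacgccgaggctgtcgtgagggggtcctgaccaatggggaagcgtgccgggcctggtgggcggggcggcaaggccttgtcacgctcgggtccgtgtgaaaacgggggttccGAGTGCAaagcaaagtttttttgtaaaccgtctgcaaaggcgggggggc

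The MT2A window held 7 cores, a number reached by 0.0313% of the 35116 windows of this length in the table. The MT1X window held 4, reached by 0.37% of windows. The SLC30A1 window held 1, and 24.8% of windows held at least as many. A match describes letters and not binding, and the windows leave out everything further up or down.

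The 4 metallothioneins with reads in U2OS cells, MT1X, MT1G, MT1E and MT2A, and SLC30A1 all rose with arsenite in all 3 backgrounds. MT1X rose 112-fold in knockout cells, 48.3-fold in cells with wild-type G3BP1 and 53.2-fold in cells with NTF2-deleted G3BP1, as ratios of group means. In the authors' deposited tables, 5 of 5 members with an adjusted p-value were called higher (adjusted p under 0.05) in each of the 3 arsenite comparisons. Over all genes tested, 8.56% were called higher in the knockout, 8.18% in the wild-type rescue and 2.43% in the NTF2-deletion rescue. The other 4 members had no adjusted p-value in these tables. All 5 also had adjusted p-values in the tables without arsenite, so their place among the tested genes did not rest on the arsenite libraries.

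MT1X, the last gene of the cluster on chromosome 16, was at 34.8 and 27.1 normalised reads in the 2 knockout libraries and at 3435 and 3493 with arsenite. With wild-type G3BP1 it went from 59.8 and 58.2 to 2846 and 2848. With NTF2-deleted G3BP1 it went from 55.7 and 41.7 to 2646 and 2536. In every background the arsenite libraries lay far above the untreated ones. In the authors' deposited tables its log2 fold changes were 6.20 (SE 0.17), 4.92 (SE 0.11) and 4.44 (SE 0.11). These are smaller than the log2 ratios of 6.80, 5.59 and 5.73 of the reads, as the deposited values are shrunken toward 0.

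MT1G was also low before arsenite and high after it in every background, at 32.7 and 34.5 normalised reads in the knockout and 1670.0 and 1681 with arsenite. In cells with wild-type G3BP1 it went from 57.6 and 48.1 to 1389 and 1295. In cells with NTF2-deleted G3BP1 it went from 73.9 and 42.8 to 1303 and 1199.8. The ratios were 49.9-fold, 25.4-fold and 21.4-fold. Shrinkage moved this gene most: the authors' deposited table for the NTF2-deletion rescue gives 1.63 in log2 (SE 0.14), against a log2 ratio of 4.42 from the reads.

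MT1E, which was already high before arsenite, stood at 1055 and 1125 normalised reads in the knockout and at 9432 and 8526 with arsenite. It went from 1689 and 1751 to 7238 and 7109 with wild-type G3BP1. With NTF2-deleted G3BP1 it went from 1879.5 and 1832 to 7255 and 7124. These are ratios of 8.24, 4.17 and 3.87, and the treated and untreated libraries did not overlap in any background.

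MT2A, the most abundant metallothionein by reads, was at 2004 and 2112 normalised reads in the knockout and rose to 15390.1 and 13916 with arsenite, 7.12-fold. With wild-type G3BP1 it was already at 13099.5 and 13061 before arsenite and reached 23061 and 21616, 1.71-fold. With NTF2-deleted G3BP1 it went from 13552 and 12244 to 22687 and 22153, 1.74-fold. The rescued cells without arsenite thus came near the MT2A level of the knockout cells with it, but stayed below it without overlap of libraries. Their means were 13080 with wild-type and 12898 with NTF2-deleted G3BP1, against 14653 in the arsenite-treated knockout. Scaling by total gene reads without G3BP1 moved the median of all genes by -0.17 in log2 for both untreated rescues over the untreated knockout. The gain in reads differed less than the ratio, at 12595 in the knockout, 9258.5 with wild-type G3BP1 and 9522 with NTF2-deleted G3BP1.

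SLC30A1, the only exporter among the 9 genes, rose from 1188 and 1119 normalised reads to 8217 and 8147 in the knockout, 7.09-fold. With wild-type G3BP1 it rose from 1836 and 1886 to 4757 and 4563, 2.50-fold. With NTF2-deleted G3BP1 it rose from 1718 and 1777 to 4493 and 4476, 2.57-fold. Unlike MT2A, it ended highest in the knockout, where its gain was 7029 reads against 2799 and 2737 in the rescues.

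**Figure D1:**
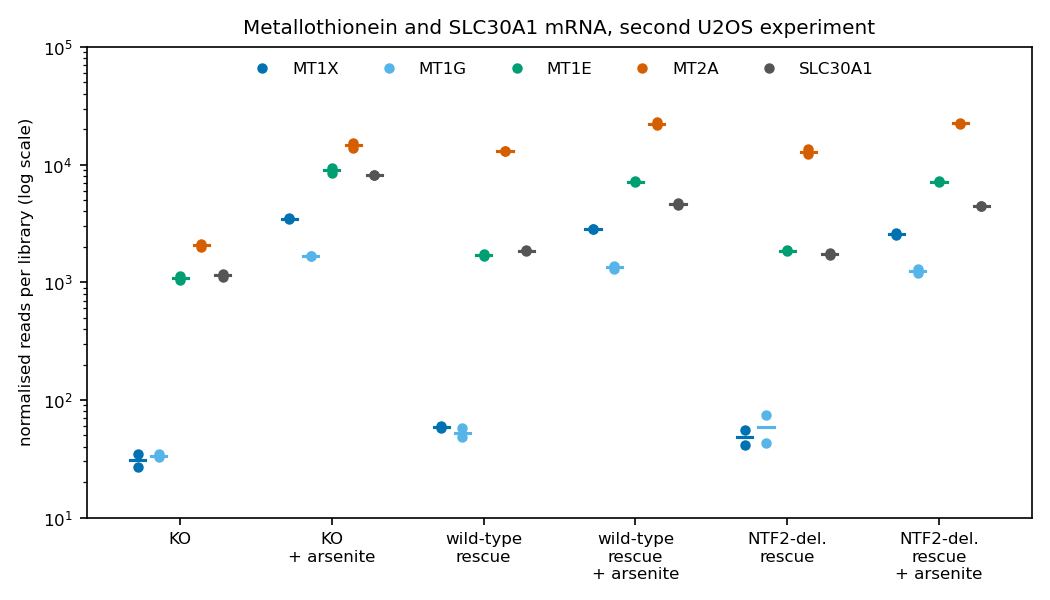
Normalised reads per library (log axis) for 5 members in the 6 groups of the second U2OS experiment, 2 libraries per group as points and their mean as a bar. MT2A in untreated rescues (12244 to 13552) sits near its level in arsenite-treated knockout cells (13916 and 15390.1), while the other 4 are lower in untreated rescues than in any arsenite group.

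The question of whether the arsenite response differs between rescued and knockout cells was put to the difference between responses. In each rescue the log2 response was smaller than in the knockout for 5 of 5 tested members. Both differences take away the same knockout response, from the same libraries, so they are not independent of each other. The difference test on fold changes of the authors' deposited tables (normal test, Benjamini-Hochberg adjusted over all genes with a base mean, the average of normalised reads, of at least 10) called 2.68% of 15648 genes smaller with wild-type G3BP1 and 3.08% of 15442 smaller with NTF2-deleted G3BP1. SLC30A1 differed by -1.52 (SE 0.08, adjusted p 1.75e-69) with wild-type G3BP1 and by -1.50 (SE 0.09, adjusted p 2.06e-58) with the deletion mutant, from the authors' deposited tables. MT2A differed by -2.07 (SE 0.08) and -2.04 (SE 0.08), MT1E by -0.999 (SE 0.09) and -1.13 (SE 0.09), on the same scale from the authors' deposited tables. MT1X differed by -1.28 (SE 0.20) and -1.76 (SE 0.20) and MT1G by -1.14 (SE 0.22) and -3.49 (SE 0.23), from the authors' deposited tables.

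These differences were fitted again without shrinkage, by limma voom on the recovered reads with the responses contrasted directly. The log2 differences with wild-type G3BP1 were -1.50 for SLC30A1 (SE 0.07), -2.06 for MT2A (SE 0.07), -0.98 for MT1E (SE 0.08), -1.20 for MT1X (SE 0.29) and -0.96 for MT1G (SE 0.32). Each had a limma adjusted p under the threshold, the highest being 0.042 for MT1G, while 4.43% of 16654 genes were called smaller. With NTF2-deleted G3BP1 they were -1.46 (SE 0.07), -2.03 (SE 0.07), -1.09 (SE 0.08), -1.05 (SE 0.30) and -1.17 (SE 0.31) in the same order, and 5.73% of genes were called smaller. The fits that follow left out each of the 12 libraries of the second experiment. Fits without a library of the other rescue remove no library of the difference itself, so counts out of 12 overstate the checks on it. Leaving out each library in turn, MT2A, SLC30A1 and MT1E were called in 12 of 12 fits for both rescues. MT1X lost its call without knockout library b (-1.03, limma adjusted p 0.0617) and, for the deletion mutant, without that library (-0.89) or NTF2-deletion rescue library a (-0.84, limma adjusted p 0.143). MT1G was called in 6 of 12 fits against wild-type G3BP1 and in 10 of 12 against the mutant.

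**Figure D2:**
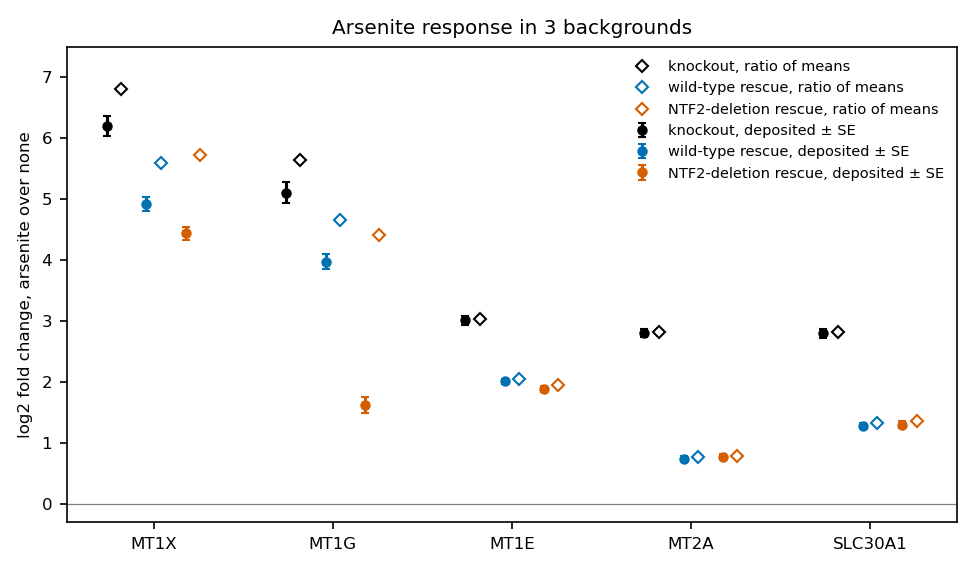
Log2 fold change with arsenite for 5 members in 3 backgrounds, as filled points with standard errors from the authors' deposited tables and as open diamonds for the ratio of group means of the recovered reads. The knockout is highest for every gene, the rescues lie close together on the ratio scale, and the deposited value of MT1G in the NTF2-deletion rescue (1.63) stands far below its ratio (4.42).

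The wild-type and the NTF2-deleted G3BP1 were compared with each other. From the authors' deposited tables the difference of responses was 2.35 (SE 0.18, adjusted p 3.19e-33) for MT1G and was called for none of the other 4, with 0.328% of 15865 genes called in either direction. That call was absent in limma voom on the reads, where the difference for MT1G was 0.21 (95% interval -0.33 to 0.74, adjusted p 0.947). In limma 0 of 5 members were called in this contrast, 0 of them at an unadjusted p under 0.05, with 0.132% of all genes called. The 95% intervals ran from -0.14 to 0.09 for MT2A, from -0.17 to 0.10 for SLC30A1, from -0.03 to 0.25 for MT1E and from -0.64 to 0.35 for MT1X. The levels of the 2 rescues were compared directly by limma as well. Without arsenite 0 of 5 members were called (0 at an unadjusted p under 0.05, 1.12% of genes called), and with arsenite again 0 of 5 (1 unadjusted, 3.09% of genes called). The unadjusted one was MT1X, 0.14 higher in log2 with wild-type G3BP1 (95% interval 0.04 to 0.23, limma adjusted p 0.0979).

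With arsenite in both, the levels of knockout and rescued cells went in opposite directions for MT2A and the other members. SLC30A1 was 1.76-fold and MT1E 1.25-fold higher in the arsenite-treated knockout than in the arsenite-treated wild-type rescue. MT1X and MT1G were 1.22-fold and 1.25-fold higher there. MT2A was lower, at 0.656 of the level in the wild-type rescue and 0.654 of that in the NTF2-deletion rescue. limma called 5 of 5 members in both of these contrasts, beside 71.6% and 69.2% of all genes, so the calls by themselves do not set these genes apart. Scaling by total gene reads without G3BP1 moved the median of all genes by 0.15 in log2 toward the knockout in both contrasts.

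Before arsenite, both rescues held more of these mRNAs than the knockout, MT2A by far the most. Its levels in the rescues were 6.36-fold and 6.27-fold those of the knockout. In the authors' deposited tables the log2 fold change of MT2A was 2.68 (SE 0.05) with wild-type and 2.66 (SE 0.07) with NTF2-deleted G3BP1, both with an adjusted p listed as 0. SLC30A1 was at 0.71 (SE 0.09, adjusted p 2.72e-14) and 0.62 (SE 0.09, adjusted p 1.61e-10) by the authors' deposited tables, and MT1E at 0.68 (SE 0.09) and 0.79 (SE 0.09). The authors' deposited tables thus called 3 of 5 tested members higher in each rescue, and 23% and 22.8% of all genes tested. MT1X (0.82, adjusted p 0.106, and 0.57, adjusted p 0.317) and MT1G (0.58, adjusted p 0.287, and 0.70, adjusted p 0.183) were not called in the authors' deposited tables, at 22 to 73 reads per library. limma called MT1X with wild-type G3BP1 (0.92, adjusted p 0.00537) and MT1G with the mutant (0.75, adjusted p 0.0292), beside 35.3% and 34.9% of genes called higher by limma, and neither call held in all fits with 1 library left out. The call of MT1X was lost without knockout library b (0.75, limma adjusted p 0.0621). That of MT1G was lost without knockout library a (0.70), knockout library b (0.78) or NTF2-deletion rescue library a (0.34), while without NTF2-deletion rescue library b limma called 5 of 5 members. Scaling by total gene reads without G3BP1 moved the median of all genes by -0.17 in log2 in both rescues and left MT2A at 2.50 and 2.48, SLC30A1 at 0.52 and 0.43 and MT1E at 0.49 and 0.60, all called by limma.

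Set against the untreated knockout, the arsenite-treated rescues were higher for 5 of 5 tested members in the authors' deposited tables, beside 25.1% of genes with wild-type and 23.3% with NTF2-deleted G3BP1. The log2 fold changes there were 6.42 and 6.25 for MT1X, 5.25 and 5.11 for MT1G, 3.498 and 3.478 for MT2A, 2.78 and 2.75 for MT1E and 2.07 and 1.99 for SLC30A1, from the authors' deposited tables. MT2A, by these steps, was 10.9-fold above the untreated knockout in both, by ratio of means.

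The mix of metallothionein reads moved with these shifts. MT2A made up 64.1% ± 0.055 (SD, n = 2) of the reads of the 8 metallothionein members in untreated knockout cells and 87.7% ± 0.238 and 86.8% ± 0.446 in the rescues. With arsenite its share was 50.9% ± 0.733 in the knockout, 66.3% ± 0.71 with wild-type and 67.0% ± 0.119 with NTF2-deleted G3BP1. The summed level of the 8 genes rose from 3212 ± 121 (SD, n = 2) to 28774 ± 1633 normalised reads in the knockout. It rose from 14912 ± 9.1 to 33703 ± 1180.0 with wild-type and from 14861 ± 989 to 33453 ± 623 with NTF2-deleted G3BP1. These are shares of reads and not of molecules per length.

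**Figure D3:**
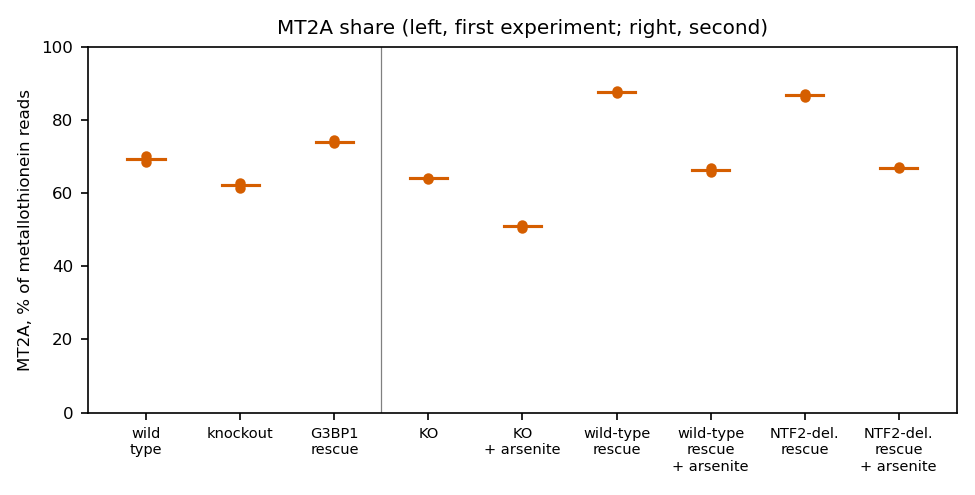
Share of MT2A in the reads of the 8 metallothionein members (percent, axis from 0), 2 libraries per group as points and their mean as a bar, for the first (left) and second (right) U2OS experiment. The share is highest in untreated rescues of the second experiment (86.46% to 87.88%) and lowest in arsenite-treated knockout cells (50.39% and 51.42%).

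MT1A, MT1F, MT1L and MT1M were nearly silent in U2OS cells, with 0 to 4 reads in each of the 18 libraries. MT1A, MT1F and MT1M had at most 2, 3 and 4 reads in a library, and MT1L at most 1. The highest value of each came from an arsenite-treated library of the second experiment. MT1L is annotated as a transcribed pseudogene. A count of 0 allows up to 3 reads, which is 0.0572 to 0.278 per M gene reads over these libraries, for counting error only. These genes lie among the active ones, in the order MT2A, MT1L, MT1E, MT1M, MT1A, MT1F, MT1G and MT1X along chromosome 16. The neighbours MT1H and MT1B, which are no members, had 0 reads in all libraries without arsenite. MT1H had 3 and 8 reads in the arsenite-treated knockout, 8 and 16 with wild-type and 2 and 6 with NTF2-deleted G3BP1. MT1B had 0 reads in both arsenite-treated knockout libraries, 9 and 10 with wild-type and 2 and 9 with NTF2-deleted G3BP1.

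**Figure D4:**
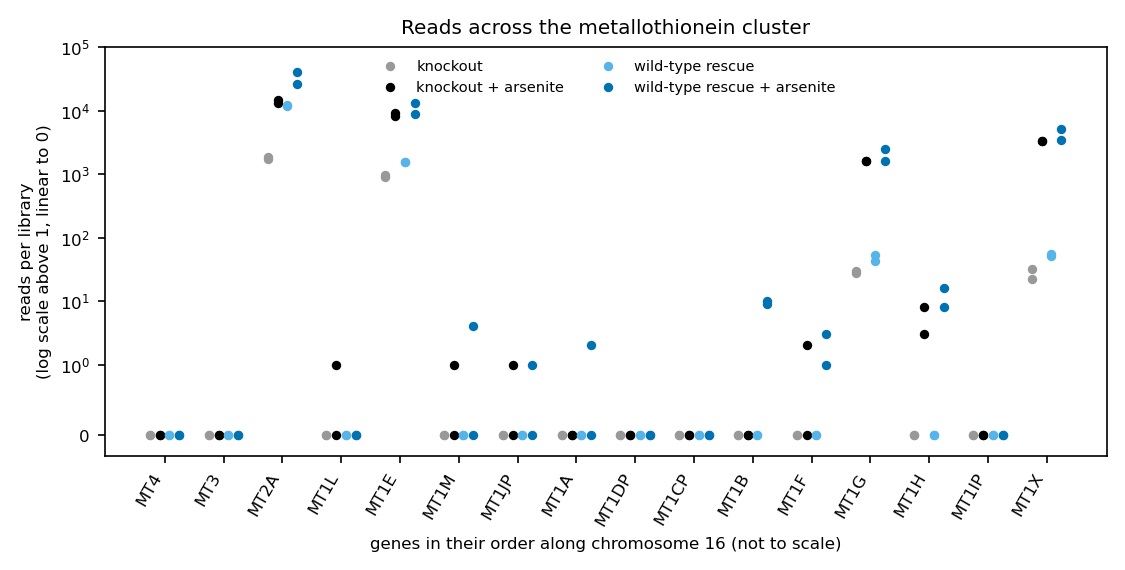
Reads per library (log scale above 1, linear to 0) for metallothionein genes in their order along chromosome 16, not to scale, in knockout and wild-type rescue cells with and without arsenite, 1 point per library. MT2A, MT1E, MT1G and MT1X carry nearly all reads, and the genes between them stay at 0 to 16.

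The first experiment compared wild-type, knockout and rescued cells without arsenite. MT1G had 1 and 0 reads in the wild-type libraries, 191 and 96 in the knockout and 122 and 121 in the rescue, so that no knockout or rescue library overlapped wild type. The ratio of normalised reads of knockout to wild type was 281, with a 95% counting interval of 50 to 1.11e+04 that rests on the single wild-type read. The authors' deposited table gives 4.27 in log2, after shrinkage, with SE 0.41 and an adjusted p of 1.09e-23. MT1X stood at 99.4 and 126 normalised reads in wild type, 218 and 203 in the knockout and 174 and 176 in the rescue, and the knockout was 0.83 higher in log2 than wild type (SE 0.24, adjusted p 0.00227, from the authors' deposited table). MT1E was at 3791 and 3541 in wild type, 5019.6 and 4756 in the knockout and 5515 and 5871 in the rescue. Its knockout libraries were 0.41 higher than wild type (SE 0.07, adjusted p 4.95e-09, from the authors' deposited table). For MT2A the wild type (8481 and 8589) and the knockout (8617 and 8558) overlapped, and the log2 fold change in the authors' deposited table was 0.00 (SE 0.05, adjusted p 0.961). In the rescue MT2A was at 16199 and 18166 normalised reads, 1.01 higher than the knockout on the log2 scale of the authors' deposited table (SE 0.05, adjusted p 6.76e-74).

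SLC30A1 moved the other way, at 6654 and 6509.8 normalised reads in wild type, 6082 and 5642 in the knockout and 5217 and 5232 in the rescue. The knockout was -0.17 from wild type (SE 0.06, adjusted p 0.0143) and 0.15 above the rescue (SE 0.06, adjusted p 0.0201) by the authors' deposited tables. Both steps are small, and each was lost by limma without 1 knockout library: the first without library b (-0.11, adjusted p 0.104) and the second without library a (0.11, adjusted p 0.142). Of the 5 tested members, the authors' deposited table called 3 higher and 1 lower in the knockout against wild type, where 18.4% and 19.4% of genes were called. Against the rescue, 1 was called higher and 2 lower in the knockout, beside 16.1% and 21.5% of genes. Wild type against the rescue gave 1 higher and 4 lower, beside 15.2% and 20.4% of genes. MT1X in that last comparison (-0.54, adjusted p 0.0399 in the authors' deposited table) was not called by limma without wild-type library a (-0.47, adjusted p 0.0782). The 3 tables share libraries and are not independent.

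**Figure D5:**
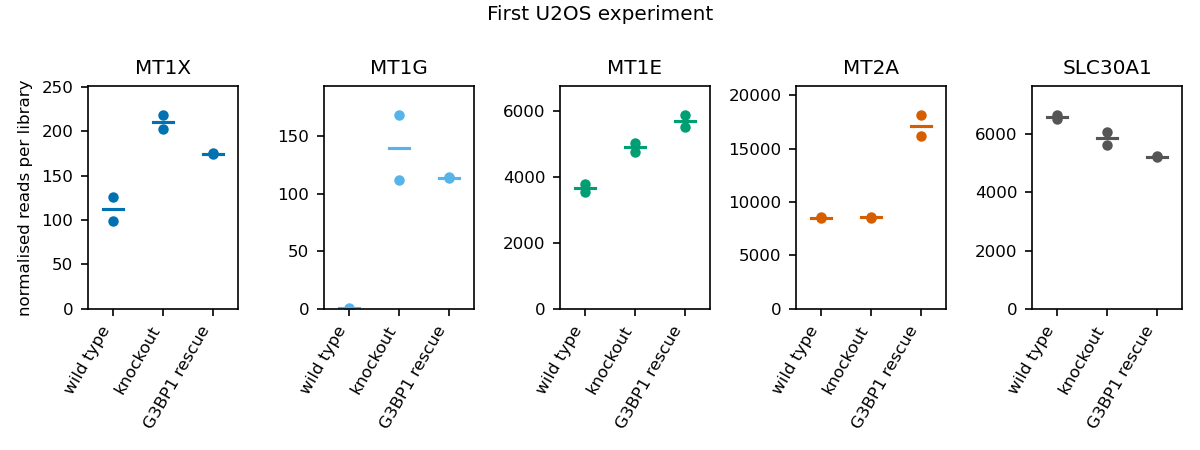
Normalised reads per library (axes from 0, 1 panel per gene) in wild-type, knockout and G3BP1 rescue cells of the first U2OS experiment, 2 libraries per group as points and their mean as a bar. MT1G is at 0 and 1 in wild type, MT2A is higher in the rescue (16199 and 18166) than in the other groups, and SLC30A1 declines from wild type (6509.8 and 6654) to the rescue (5217 and 5232).

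Rescue over knockout was then set against itself in the 2 experiments, a test added after the data were seen. In both, the transfection and the G3BP1 it delivered cannot be told apart. From the authors' deposited tables, MT2A rose by 2.68 in the second and 1.01 in the first, a difference of 1.68 (SE 0.08, adjusted p 2.88e-105). SLC30A1 rose by 0.71 in the second and was at -0.15 in the first, a difference of 0.86 (SE 0.11, adjusted p 9.96e-15) from the authors' deposited tables. MT1E differed by 0.45 (SE 0.11, adjusted p 0.000239), and MT1X (1.05, adjusted p 0.0615) and MT1G (0.82, adjusted p 0.186) were not called, from the authors' deposited tables. Across 16369 genes, 20.3% were called larger in the second experiment, so 3 of 5 members stand beside a broad difference between the experiments. The share of G3BP1 in all reads differed between the 2 rescues as given above, and its part in this difference was not tested.

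In the 293 cells of the RIP comparison the reads fell on a partly different set of copies. MT1E, MT1A, MT1L and MT1M had 0 reads in all 6 libraries and MT1G had 1 in all. MT1F, nearly silent in U2OS, had 16 to 37 reads in the immunoprecipitates but only 3 to 6 in the inputs. Reads in an immunoprecipitate do not measure how active a copy is, and the inputs held few for MT1F. MT1F was called higher in the immunoprecipitate by the authors' deposited table, at 2.18 in log2 with SE 0.60 and an adjusted p of 0.000729. MT1X had 7 to 11 reads in the immunoprecipitates and 1 to 5 in the inputs and was not called (1.01, SE 0.74, adjusted p 0.244, by the authors' deposited table). MT2A, with a base mean of 235, was at 0.47 (SE 0.21, adjusted p 0.051) and SLC30A1, with a base mean of 530.1, at -1.14 (SE 0.14, adjusted p 5.19e-15) by the authors' deposited table. Of 4 members tested, 1 was called higher and 1 lower, beside 24.7% and 31.4% of all genes. Neither was called when Wald statistics were scaled to unit robust spread over all genes. Reads of single libraries could be worked out only for the members with few reads here, so MT2A and SLC30A1 have no values per library.

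The other genes of zinc handling, a list of MTF1, further metallothionein genes and the zinc transporter families SLC30A (mostly out of the cytoplasm) and SLC39A (into it), numbered 36 symbols, of which 35 matched. With arsenite in the knockout, the authors' deposited table called 1 of 18 tested genes higher and 11 lower, where 8.56% and 10.9% of all genes were called. The median log2 fold change of the tested list was -0.39 against 0.00 over all genes tested. In the wild-type rescue 0 of 18 were called higher and 12 lower in the authors' deposited table, beside 8.18% and 12.2% of genes. In the NTF2-deletion rescue 0 of 17 were higher and 4 lower, beside 2.43% and 6.14%, with a list median of -0.17. The 1 gene higher was MTF1, at 0.45 (SE 0.12, adjusted p 0.00155) by the authors' deposited table for the knockout, with 615 and 608 normalised reads before and 824 and 852 after arsenite. In the rescues MTF1 was at 0.13 (adjusted p 0.165) and 0.09 (adjusted p 0.704) in the authors' deposited tables, and the difference test on those tables did not call its response different from the knockout (-0.32, adjusted p 0.224, and -0.36, adjusted p 0.145). limma on the reads did call both differences, at -0.30 (SE 0.10, limma adjusted p 0.0434) and -0.35 (SE 0.10, limma adjusted p 0.0156), so for MTF1 the call rests on the test used. The level of MTF1 was nevertheless higher in the rescues. Without arsenite its mean was 1069 with wild-type and 952 with NTF2-deleted G3BP1, against 612 normalised reads in the knockout. With arsenite the means were 1190 and 1022 against 838.

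The 3 lowest called transporters were importers of the SLC39A family, which carry zinc toward the cytoplasm. SLC39A8 was at -0.84 (SE 0.18), SLC39A6 at -0.76 (SE 0.13) and SLC39A14 at -0.71 (SE 0.07) in the authors' deposited table for the knockout. In the wild-type rescue they were at -0.48, -0.47 and -0.48 in the authors' deposited table, all called lower. In the NTF2-deletion rescue they were at -0.26 (adjusted p 0.166, not called), -0.29 and -0.37 (both called lower) in the authors' deposited table. The difference of response from the knockout in that rescue was 0.46 for SLC39A6 (adjusted p 0.0329) and 0.34 for SLC39A14 (adjusted p 0.001), both called, and 0.58 for SLC39A8 (adjusted p 0.074), from the authors' deposited tables. For the wild-type rescue the same test on the authors' deposited tables called none of the 3 (adjusted p 0.0716 to 0.483). limma on the reads called all 3 against the NTF2-deletion rescue (highest limma adjusted p 0.0043). Against the wild-type rescue it called SLC39A6 and SLC39A14, but not SLC39A8 (limma adjusted p 0.0513). SLC39A14 went from 4626 and 4544 to 2849 and 2673 normalised reads in the knockout, and from 8490.0 and 8632 to 6266 and 6103 with wild-type G3BP1. SLC30A5, SLC30A6 and SLC30A7, exporters of internal membranes, were also called lower in the knockout, at -0.41, -0.49 and -0.55 in the authors' deposited table. Without arsenite the list was mixed, with 8 of 19 genes higher and 4 lower in the wild-type rescue against the knockout in the authors' deposited table, beside 23% and 19.1% of genes.

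Likeness of pattern was measured as the Euclidean distance over the deposited log2 fold changes of the 7 tables of the second experiment, among 10053 genes outside the 9 whose base mean reached 100 in all 7. The tables share control libraries, and the distance is a description. The nearest to SLC30A1 were DNAJA4 (0.96), MCL1 (0.99), ZFAND2A (1.07), JMJD6 (1.10) and DUSP1 (1.40). The nearest to MT1X were HSPA1B (4.26), HSPA1A (4.95), HMOX1 (5.21), JUN (6.28) and EGR1 (6.36). MT1X itself would not pass this minimum, with a base mean of 39.6 and 36.1 in the tables of untreated rescue over knockout, so genes as low as MT1X before arsenite were not among those compared. HSPA1B, a cytosolic chaperone gene that shares nearly all its sequence with HSPA1A so that their reads may be split, had log2 fold changes with arsenite of 4.45, 3.51 and 2.85 in the knockout, wild-type rescue and NTF2-deletion rescue, from the authors' deposited tables.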

How the data were processed

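Poly-A RNA libraries were strand-preserving, per the labels' protocols. Per the submitters' processing notes STAR and DESeq2 were used. Build, annotation and counting setting are not given in the sources used here. Each of the 11 tables holds the authors' comparison over 61541 genes and 4 summary lines, which were left out. The deposited base mean is a signal, normalised reads averaged over both groups. The deposited fold change and standard error are log2 values, shrunk toward 0, the deposited Wald statistic is a score, and the deposited p-value and its adjusted form are the authors' own. No table of values per library was used.

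Whole reads of the 18 U2OS libraries were solved from the base means for 100% of genes; size factors recomputed from them differed by at most 0.014%. Library names a and b carry no replicate number. Libraries of a group differed by more than sampling of reads gives (mean squared standardised difference 1.67 to 4.55) and were counted separately. Values were computed with numpy, pandas and scipy, and limma 3.58.1 voom in R 4.3.3 was fitted per experiment to genes with a mean of at least 10 normalised reads. Intervals are 1.96 standard errors on each side or exact for counts, and cover counting error only in the latter case. On simulated data with 200 genes changed by 1 in log2, limma recovered 78% for the difference of responses of wild-type rescue and knockout over 16544 genes, with 7.69% false calls. The difference test recovered 95.5% over 15648 genes, with 4.5% false. Its simulated fold changes had normal errors of the deposited size, as the test assumes, and no shrinkage. That simulation therefore cannot show how the test behaves on shrunken values. In both simulations the changed genes had a mean of at least 100 normalised reads. The limma simulation also gave a gene the same mean in all groups apart from the change. The limma rate thus does not cover genes as low before arsenite as MT1X and MT1G.

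The members and lists were chosen with earlier results of these data known. Named genes were all members, MTF1, the 3 highest and 3 lowest called zinc genes in the knockout arsenite table with a base mean of at least 100, G3BP1, and the 5 genes nearest to MT1X and to SLC30A1. MT1H, MT1B, SLC30A5, SLC30A6 and SLC30A7 were chosen after their values were seen. limma, the direct contrasts and the comparison of the experiments were added after the data were seen. Alternatives changed the adjustment, thresholds, centring, scaling, filter and shrinkage, and left out each library.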

Additional observations from a re-analysis of the deposited data

Results flagged for a closer look

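The arsenite response differed between backgrounds by the test of the difference itself, from the authors' deposited tables. With wild-type G3BP1 minus knockout the log2 differences were -0.999 for MT1E, -1.14 for MT1G, -1.28 for MT1X, -2.07 for MT2A and -1.52 for SLC30A1. With NTF2-deleted G3BP1 minus knockout they were -1.13 for MT1E, -3.49 for MT1G, -1.76 for MT1X, -2.04 for MT2A and -1.50 for SLC30A1. Without shrinkage, in limma on the recovered reads, the NTF2-deletion differences were smaller for MT1G (-1.17) and MT1X (-1.05). Untreated levels differed in the same groups, since MT2A was 6.36-fold and 6.27-fold higher in the untreated rescues than in the untreated knockout, and the part of the untreated level in the smaller ratio was not tested.

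The response of MT1G differed between the rescues by 2.35 in the authors' deposited tables. On the recovered reads the difference was 0.21 in limma. Undoing the shrinkage by formula, with the larger root taken, gave 1.67, still called (adjusted p 5.99e-06 by the difference test). That root cannot raise the deposited 1.63 of the NTF2-deletion rescue to its log2 ratio of 4.42. The 1.67 thus still holds shrinkage and does not show whether the call stands without it. The untreated NTF2-deletion libraries held 73 and 40 reads of this gene.

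Rescue over knockout differed between the experiments, by 1.68 for MT2A, 0.86 for SLC30A1 and 0.45 for MT1E in the authors' deposited tables. In both experiments the transfection and the G3BP1 it delivered cannot be told apart. G3BP1 took 3.83% to 5.32% of gene reads in the untreated rescues of the second experiment and 0.0435% and 0.0437% in the rescue of the first.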

How the results depend on the processing

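Across the alternatives no called fold change or difference of a member reversed. A minimum log2 fold change of 1 left 4 of 5 members higher with arsenite in each rescue, without MT2A, and a minimum difference of 1 left 4 smaller in the wild-type rescue's response, without MT1E. A minimum log2 fold change of 1 also lowered the calls to 1 higher in the wild-type rescue over knockout and 1 higher in the NTF2-deletion rescue over knockout. In the first experiment it left 1 higher and 0 lower for knockout over wild type, 0 higher and 1 lower for knockout over rescue and 0 higher and 2 lower for wild type over rescue. A minimum difference of 1 left 1 member in the comparison of rescue over knockout between the experiments. An adjusted p under 0.01 left 0 lower for knockout over wild type and 0 higher for knockout over rescue. In RIP, adjusting only over genes whose base mean reached 10 gave 2 higher, and scaling the Wald statistics to unit robust spread gave 0 higher and 0 lower. For wild-type against NTF2-deletion response, the 1 member called larger (MT1G) became 0 in limma voom, also with a mean of at least 1 and with total gene reads. With 1 library left out, its log2 difference in limma ran from -0.19 to 0.59. Undoing the shrinkage by formula kept the call (1.67), but that formula left part of the shrinkage of this gene in place. Leave-one-out counts of members ran from 3 to 5 higher for the NTF2-deletion rescue over knockout, 3 to 4 for the wild-type rescue over knockout, 0 to 1 lower for knockout over wild type and 0 to 2 higher for knockout over rescue. They ran from 3 to 5 smaller for each rescue's response against the knockout. The causes were not tested. No paired analysis was possible because the libraries recovered from the tables carry no replicate numbers. Depth limits MT1X and MT1G without arsenite (22 to 73 reads in the second experiment) and the 4 copies with 0 to 4 reads.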
